A study of Mus musculus with 4 samples.

Results

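The BCL2 family regulators of apoptosis were examined as 10 genes, comprising the death-promoting members Bax, Bak1, Bid, Bad, Bbc3 and Bcl2l11 and the survival members Bcl2, Bcl2l1, Bcl2l2 and Mcl1. They were chosen by name as the best known effectors, BH3-only proteins and survival proteins of the family, with earlier results of these data known. All 10 had values among the 11502 mouse gene symbols measured. Mitochondrial apoptosis is decided by proteins of this family that bind each other on the outer mitochondrial membrane. BAX and BAK form pores that release cytochrome c, survival proteins such as BCL-2, BCL-xL, BCL-w and MCL-1 hold them and their activators in check, and BH3-only proteins sense stress and act through a short helix, the BH3 domain, that fits a groove of the survival proteins. In neurons this pathway is one of the known routes of death after loss of oxygen and glucose.

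HT-22 cells, an immortalized line from mouse hippocampal neurons, were used for RNA-Seq to look at how the transcriptional co-activator PGC-1α acts on neurons under hypoxia. Wild type cells carried a negative control lentivirus (Ctrl) or a lentivirus that overexpressed PGC-1α (PGC-1α), and cells of either kind were also sequenced after oxygen and glucose deprivation, OGD (Ctrl+OGD and PGC-1α+OGD), which made 4 groups. For OGD the medium lacked serum and glucose and the chamber held 5% CO2 and 95% N2 for 2 h, after which the cells spent 24 h in normal medium. Cells of all groups had been selected with puromycin after the lentivirus was added, and whether they came from a clone is not given in the sources used here. Each group had 1 library, so no difference was checked against replicates and no p value was computed.

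The deposited values were taken as FPKM, fragments scaled to the length of the transcript and to the sequencing depth, and were summed over the transcripts of a gene, with an unknown number of reads behind them. Changes are log2 differences after 1 FPKM was added to every value, so that low genes appear to change less, and a gene is said to have risen or fallen only where it was past 1.5-fold, a log2 difference of 0.585. All 10 members were among the 10604 genes whose mean level reached 1 FPKM. Library totals lay between 331892 and 353381 FPKM. Ppargc1a, which encodes PGC-1α, had 0.900 FPKM in Ctrl, 0.103 FPKM in Ctrl+OGD, 35.1 FPKM in PGC-1α and 8.41 FPKM in PGC-1α+OGD. The comparison of PGC-1α+OGD with PGC-1α thus also spans a lower level of Ppargc1a (log2 fold change −1.94). Of 18 neuronal markers only Syp, Eno2 and Camk2a had values, and their sum was between 5.62 and 9.51 FPKM in each library. Markers of other brain cells with values numbered 2 of 5 for astrocytes, 1 of 5 for oligodendrocytes, 1 of 5 for microglia and 0 of 4 for endothelium, with sums of at most 5.62 FPKM in any library. In bulk RNA a smaller share of cells that express a gene cannot be told apart from less of its RNA per cell, which bears on a culture sampled after a stimulus that can kill cells.

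The BH3 domain is what the 10 members have in common, so the stretch of each coding sequence around its core is shown here. The core was found in the GENCODE M21 transcripts as a leucine or methionine codon, any 2 codons, a codon for isoleucine, methionine, alanine or valine, a codon for glycine, alanine or serine, an aspartate codon, and a codon for aspartate, glutamate or glycine. Capitals mark these 7 codons, and 3 codons are given on either side, 5′ to 3′ on the coding strand, with positions on GRCm38. Effectors come first, then BH3-only members, then survival members.

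Bax at chr7:45465994-45466032, minus strand: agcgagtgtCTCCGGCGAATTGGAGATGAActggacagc
Bak1 at chr17:27022528-27022566, minus strand: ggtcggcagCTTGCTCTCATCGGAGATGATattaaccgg
Bid at chr6:120897286-120897324, minus strand: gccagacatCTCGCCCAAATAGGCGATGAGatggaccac
Bad at chr19:6950783-6950821, plus strand: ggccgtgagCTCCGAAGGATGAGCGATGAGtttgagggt
Bbc3 at chr7:16313764-16313802, plus strand: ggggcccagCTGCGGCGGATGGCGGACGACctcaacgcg
Bcl2l11 at chr2:128147141-128147179, plus strand: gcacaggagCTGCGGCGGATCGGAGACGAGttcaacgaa
Bcl2 at chr1:106712572-106712610, minus strand: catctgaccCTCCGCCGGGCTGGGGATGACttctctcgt
Bcl2l1 at chr2:152829694-152829732, minus strand: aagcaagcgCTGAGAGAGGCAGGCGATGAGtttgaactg
Bcl2l2 at chr14:54884508-54884546, plus strand: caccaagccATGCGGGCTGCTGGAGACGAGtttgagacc
Mcl1 at chr3:95659427-95659465, plus strand: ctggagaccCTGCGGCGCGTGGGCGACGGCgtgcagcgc

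Each of the 10 proteins held the core pattern at 1 place, and in no gene was it split by an intron. Some allowed codons occur in a single member, such as the methionine codon that opens the core in Bcl2l2 and the serine codon in Bad. The pattern thus takes in all 10 by the way it is written, and their matches are not a test. Of 21794 protein-coding genes with a complete coding start, 446 (2.05%) held the pattern somewhere, so a match alone does not mark a family member.

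Mcl1, a survival protein known for its short half-life, was the most abundant member in all 4 libraries, and Bcl2, the founding survival gene, was the least abundant in 3 of them. Bax, Bak1, Bid and Bad formed a middle tier between 26.8 and 47.3 FPKM, Bcl2l1 and Bcl2l2 came next by their means, and Bbc3, Bcl2l11 and Bcl2 were all below 10 FPKM. By mean level over the libraries, Mcl1 was at the 94.6th percentile of the 10604 genes and Bcl2 at the 19.6th. In the PGC-1α library Bbc3 took the lowest place, and Bcl2l1 stood above Bid. Neighbours within the middle tier changed places from library to library, and with no replicates their order within a library has no error to be set against.

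**Figure D1:**
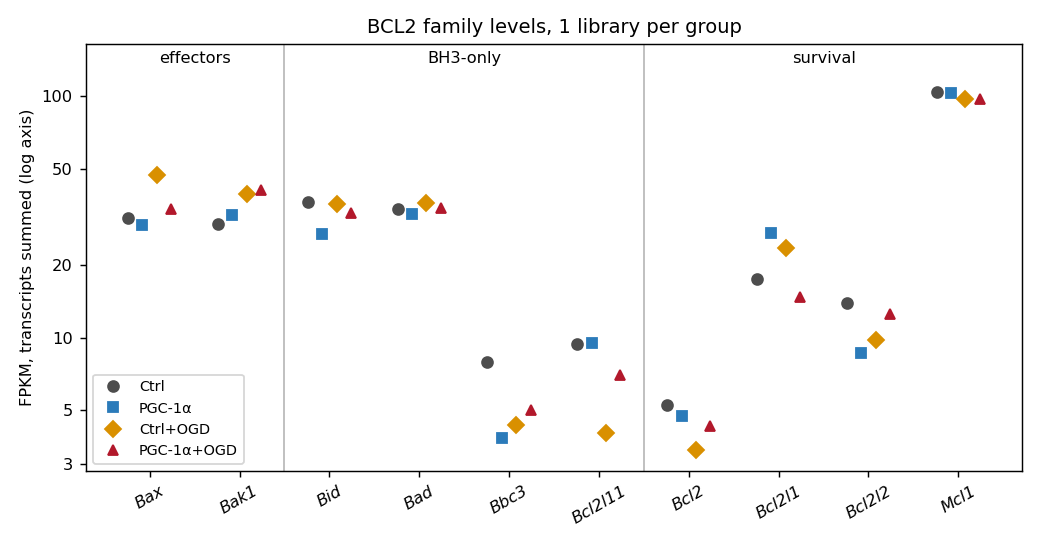
Summed FPKM (log axis) of the 10 members in the 4 libraries, 1 point per library, grouped into effectors, BH3-only members and survival members. Mcl1 lies near 100 FPKM in every library, while Bcl2l11 runs from 4.02 to 9.47 FPKM and Bbc3 from 3.85 to 7.89 FPKM.

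The effector Bax (ENSMUSG00000003873, chr7:45461697-45466898, minus strand), which moves from the cytosol to mitochondria to form pores, had 31.5 FPKM in Ctrl, 47.3 FPKM in Ctrl+OGD, 29.4 FPKM in PGC-1α and 34.1 FPKM in PGC-1α+OGD. The Ctrl+OGD library was thus the highest, and the other 3 lay close together. The log2 fold change of Bax was 0.57 for Ctrl+OGD vs Ctrl, just short of 1.5-fold, and with PGC-1α after OGD it was −0.46, and neither passed. Without OGD the PGC-1α difference was −0.09.

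Bak1 (ENSMUSG00000057789, chr17:27019810-27029009, minus strand), the effector that sits on mitochondria from the start, had 29.6 FPKM in Ctrl, 39.6 FPKM in Ctrl+OGD, 32.3 FPKM in PGC-1α and 41.1 FPKM in PGC-1α+OGD. Both OGD libraries were above both libraries without OGD. The log2 difference with OGD was 0.41 in control cells and 0.34 in PGC-1α cells, within 1.5-fold, and the difference with PGC-1α was 0.12 without and 0.05 after OGD. Together the effectors summed to 61.1 FPKM in Ctrl, 86.9 FPKM in Ctrl+OGD, 61.7 FPKM in PGC-1α and 75.2 FPKM in PGC-1α+OGD.

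Among the BH3-only members, Bbc3 (ENSMUSG00000002083, chr7:16308393-16318205, plus strand) encodes PUMA, a p53 target. Its level was 7.89 FPKM in Ctrl, 4.33 FPKM in Ctrl+OGD, 3.85 FPKM in PGC-1α and 5.01 FPKM in PGC-1α+OGD. Ctrl was the highest library and the other 3 lay between 3.85 and 5.01 FPKM. Bbc3 fell with PGC-1α (log2 fold change −0.87) and after OGD in control cells (−0.74), 2 comparisons that share the Ctrl library. After OGD, PGC-1α gave 0.17, and OGD in PGC-1α cells gave 0.31, both within 1.5-fold.

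Bcl2l11 (ENSMUSG00000027381, chr2:128126038-128162547, plus strand) encodes BIM, which binds all the main survival proteins. It had 9.42 FPKM in Ctrl, 4.02 FPKM in Ctrl+OGD, 9.47 FPKM in PGC-1α and 6.98 FPKM in PGC-1α+OGD. Ctrl+OGD was the low library, and both libraries without OGD were nearly level. Bcl2l11 fell after OGD in control cells by 1.05 on the log2 scale, and was higher in PGC-1α+OGD than in Ctrl+OGD by 0.67, 2 comparisons that share the Ctrl+OGD library. Its highest value was 2.35 times its lowest, the widest range of the 10 members. In PGC-1α cells the OGD difference was −0.39, within 1.5-fold.

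Bid (ENSMUSG00000004446, chr6:120891930-120916853, minus strand), which caspase-8 cleaves to link death receptors with mitochondria, had 36.5 FPKM in Ctrl, 35.7 FPKM in Ctrl+OGD, 26.8 FPKM in PGC-1α and 32.8 FPKM in PGC-1α+OGD. The PGC-1α library was the lowest, with a log2 difference of −0.43 from Ctrl, and no comparison of Bid passed 1.5-fold. Bad (ENSMUSG00000024959, chr19:6941861-6951899, plus strand), which is held by 14-3-3 proteins when growth factors are present, had 34.2 and 36.2 FPKM in Ctrl and Ctrl+OGD and 32.6 and 34.6 FPKM in PGC-1α and PGC-1α+OGD. Its highest value was 1.11 times its lowest, and its log2 differences lay between −0.07 and 0.08.

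Among the survival members, Bcl2l1 (ENSMUSG00000007659, chr2:152780668-152831728, minus strand) encodes BCL-xL, the survival protein best known from mature neurons. It had 17.4 FPKM in Ctrl, 23.4 FPKM in Ctrl+OGD, 27.2 FPKM in PGC-1α and 14.8 FPKM in PGC-1α+OGD. The highest and the lowest library were thus the 2 with PGC-1α. Bcl2l1 rose with PGC-1α without OGD (log2 fold change 0.61), was lower in PGC-1α+OGD than in Ctrl+OGD (−0.63), and fell with OGD in PGC-1α cells (−0.84). OGD in control cells gave 0.41, within 1.5-fold.

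Bcl2l2 (ENSMUSG00000089682, chr14:54883377-54888234, plus strand), which encodes BCL-w, had 13.9 FPKM in Ctrl, 9.75 FPKM in Ctrl+OGD, 8.63 FPKM in PGC-1α and 12.5 FPKM in PGC-1α+OGD. It fell with PGC-1α without OGD (log2 fold change −0.63), and its other differences were 0.33 for PGC-1α+OGD vs Ctrl+OGD, −0.47 for Ctrl+OGD vs Ctrl and 0.49 for OGD in PGC-1α cells. Bcl2l2 shares exons on the same strand with the gene Gm20521, which had 3.66 and 6.74 FPKM in Ctrl and Ctrl+OGD and 5.86 and 4.13 FPKM in PGC-1α and PGC-1α+OGD. Gm20521 was thus high in the libraries where Bcl2l2 was low. Summed together they had 17.6, 16.5, 14.5 and 16.6 FPKM in that order, and the difference with PGC-1α became −0.26, so that the call is lost when reads of both are taken as a whole.

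Bcl2 (ENSMUSG00000057329, chr1:106538178-106714274, minus strand), whose protein guards the mitochondrial and endoplasmic reticulum membranes, had 5.26 FPKM in Ctrl, 3.41 FPKM in Ctrl+OGD, 4.71 FPKM in PGC-1α and 4.31 FPKM in PGC-1α+OGD. Its lowest library was Ctrl+OGD, at a log2 difference of −0.50 from Ctrl, within 1.5-fold. Mcl1 (ENSMUSG00000038612, chr3:95658788-95663176, plus strand) had 105 FPKM in Ctrl, 98.0 FPKM in Ctrl+OGD, 103 FPKM in PGC-1α and 97.7 FPKM in PGC-1α+OGD. The Mcl1 differences were −0.02, −0.00, −0.10 and −0.08 on the log2 scale for PGC-1α without OGD, PGC-1α after OGD, OGD in control cells and OGD in PGC-1α cells.

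**Figure D2:**
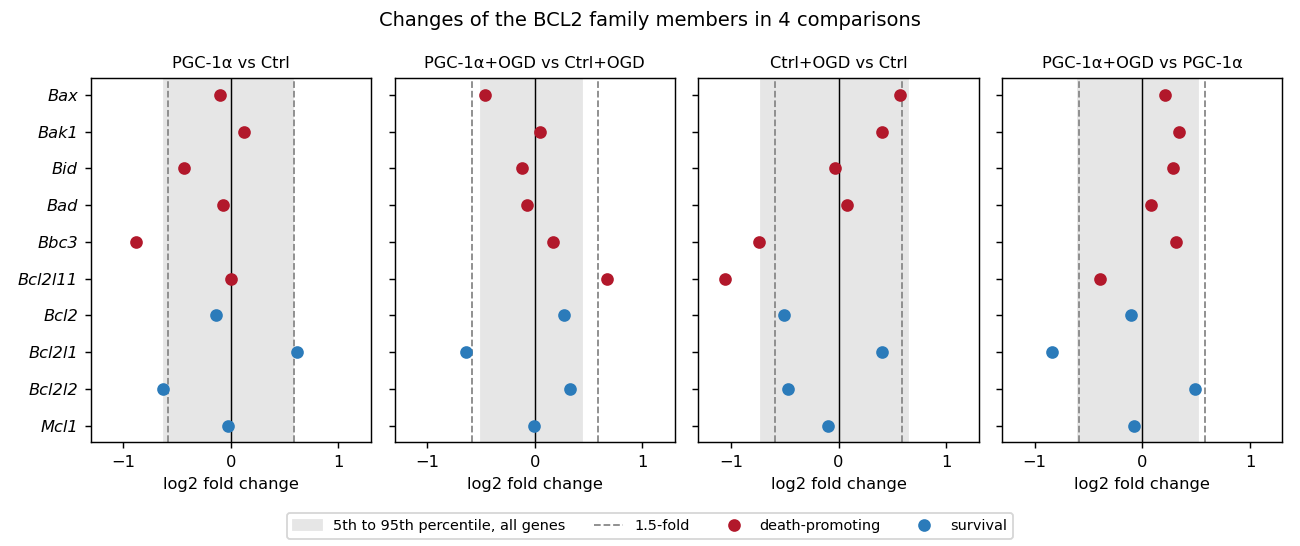
Log2 fold change of each member in the 4 comparisons, death-promoting members in red and survival members in blue, with dashed lines at 1.5-fold and a grey band from the 5th to the 95th percentile of all 10604 genes. Most members lie inside the band, Bcl2l11 is lowest for Ctrl+OGD vs Ctrl (−1.05), and Bcl2l1 lies right of 0 for PGC-1α vs Ctrl and left of it for PGC-1α+OGD vs Ctrl+OGD.

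For PGC-1α vs Ctrl, 1 member rose (Bcl2l1) and 2 fell (Bbc3 and Bcl2l2), while over all genes 4.91% were higher and 5.63% lower. For PGC-1α+OGD vs Ctrl+OGD, 1 member was higher (Bcl2l11) and 1 lower (Bcl2l1), against 3.08% and 3.82% of all genes. Each count is too small to set the 10 members apart from these shares.

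For Ctrl+OGD vs Ctrl, 0 members rose and 2 fell (Bbc3 and Bcl2l11), against 6.20% of all genes higher and 7.71% lower. For PGC-1α+OGD vs PGC-1α, 0 members rose and 1 fell (Bcl2l1), against 3.82% and 5.22%. The members nearest to 1.5-fold without reaching it were Bid with PGC-1α (−0.43), Bax for PGC-1α+OGD vs Ctrl+OGD (−0.46) and for Ctrl+OGD vs Ctrl (0.57), and Bcl2l2 for PGC-1α+OGD vs PGC-1α (0.49). The median size of the log2 difference over the 10 members was 0.13, 0.22, 0.44 and 0.30 for PGC-1α without OGD, PGC-1α after OGD, OGD in control cells and OGD in PGC-1α cells, beside 0.20, 0.13, 0.25 and 0.17 over all genes. Of the 10604 genes, the middle range from the 5th to the 95th percentile was widest for Ctrl+OGD vs Ctrl, from −0.72 to 0.65, and narrowest for PGC-1α+OGD vs Ctrl+OGD, from −0.49 to 0.44.

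The death-promoting members did not move together. For PGC-1α vs Ctrl, 0 of 6 rose and 1 fell, with a median log2 difference of −0.08, while PGC-1α+OGD vs Ctrl+OGD had 1 higher and 0 lower, with a median of −0.01. For Ctrl+OGD vs Ctrl, 0 rose and 2 fell with a median of 0.02, the effectors Bax and Bak1 being at 0.57 and 0.41 and the BH3-only members having a median of −0.38. For PGC-1α+OGD vs PGC-1α the median of the 6 was 0.24, and none passed 1.5-fold. Over all genes the medians were −0.03, −0.01, −0.02 and 0.00 for PGC-1α without OGD, PGC-1α after OGD, OGD in control cells and OGD in PGC-1α cells.

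The 4 survival members had medians of −0.08 for PGC-1α vs Ctrl, 0.13 for PGC-1α+OGD vs Ctrl+OGD, −0.28 for Ctrl+OGD vs Ctrl and −0.09 for OGD in PGC-1α cells. Bcl2l1 differed in sign from Bcl2l2 in all 4 comparisons. With 4 genes a median follows single members, and these values describe the libraries at hand.

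Summed over genes, the death-promoting members had 149 FPKM in Ctrl, 167 FPKM in Ctrl+OGD, 134 FPKM in PGC-1α and 155 FPKM in PGC-1α+OGD. The survival members had 141, 135, 144 and 129 FPKM in the same order. The ratio of death-promoting to survival RNA was 1.05 in Ctrl, 1.24 in Ctrl+OGD, 0.935 in PGC-1α and 1.20 in PGC-1α+OGD.

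Both OGD libraries had a higher ratio than both libraries without OGD. The log2 change of the ratio was 0.24 for Ctrl+OGD vs Ctrl and 0.35 for OGD in PGC-1α cells, and −0.17 and −0.06 for PGC-1α against control without and after OGD. Mcl1 alone made up 74.1%, 72.8%, 71.8% and 75.6% of the survival sum in Ctrl, Ctrl+OGD, PGC-1α and PGC-1α+OGD.

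With the member of each side that had the highest mean over the 4 libraries left out, Bak1, which lay barely above Bax, and Mcl1, the ratio was 3.27 in Ctrl, 3.49 in Ctrl+OGD, 2.52 in PGC-1α and 3.59 in PGC-1α+OGD. The PGC-1α library remained the lowest of the 4, and the change for PGC-1α+OGD vs Ctrl+OGD went from −0.06 to 0.04. These sums weigh RNA and not protein, and the members differ in how their proteins are activated and turned over.

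**Figure D3:**
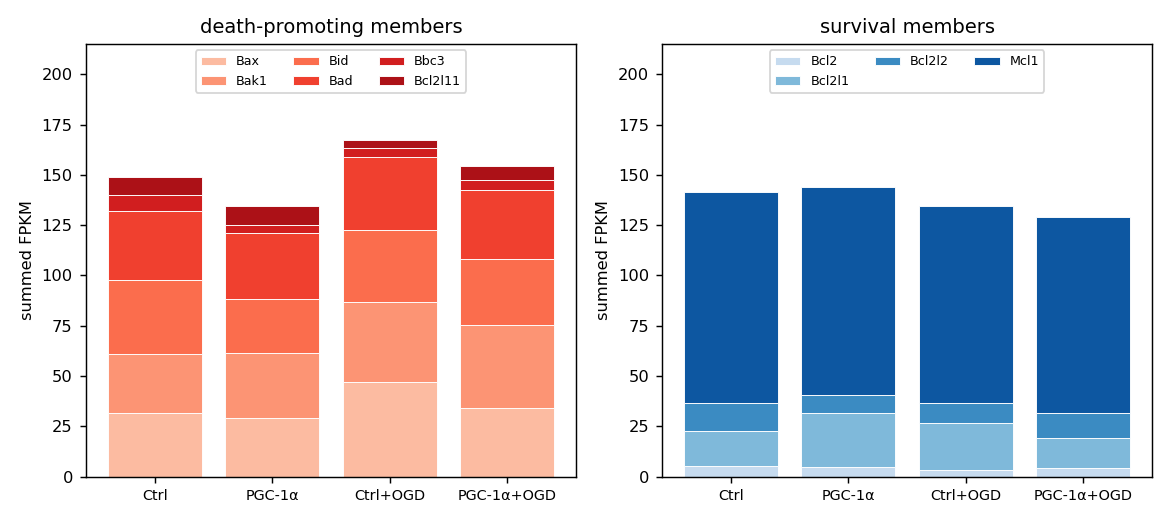
Summed FPKM of the death-promoting members (left) and the survival members (right) in the 4 libraries, each bar divided by gene. Death-promoting sums run from 134 FPKM in PGC-1α to 167 FPKM in Ctrl+OGD, and Mcl1 fills most of every survival bar.

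Ratios of single members varied more than the sums. The ratio of Bax to Bcl2, often used as an index of a cell's readiness to die, was 5.98 in Ctrl, 13.9 in Ctrl+OGD, 6.24 in PGC-1α and 7.89 in PGC-1α+OGD. Ctrl+OGD stood apart from the other 3 libraries, with Bax at its highest and Bcl2 at its lowest there. The ratio of Bax to Bcl2l1 was 1.80, 2.02, 1.08 and 2.31 in the same order, lowest in PGC-1α and highest in PGC-1α+OGD. The ratio of Bcl2l11 to Bcl2l1 was 0.540, 0.172, 0.348 and 0.473, lowest in Ctrl+OGD. The 3 ratios thus placed the libraries in different orders.

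The 10 members had 28 transcripts with values, of which 24 reached a mean of 1 FPKM. Members with 2 or more numbered 9, and Bcl2 had 1. Past 1.5-fold in either direction were 5 of the 24 for PGC-1α vs Ctrl, 4 for PGC-1α+OGD vs Ctrl+OGD, 11 for Ctrl+OGD vs Ctrl and 5 for OGD in PGC-1α cells. Over all 18301 transcripts the shares were 25.4%, 22.3%, 28.1% and 25.3%. Estimates for transcripts of a gene share reads, so the split between them is less certain than their sum.

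For 5 members a single transcript carried at least 85.5% of the gene in every library. Bak1-202 held at least 95.3% of Bak1, Bid-201 at least 94.5% of Bid, Mcl1-201 at least 98.9% of Mcl1 and Bbc3-201 at least 85.5% of Bbc3 in every library, and Bcl2-201 was the one Bcl2 transcript. Bbc3-201, which encodes the full PUMA protein with its BH3 core, had 7.34 and 3.71 FPKM in Ctrl and Ctrl+OGD and 3.81 and 4.95 FPKM in PGC-1α and PGC-1α+OGD, and its differences from Ctrl were −0.79 for PGC-1α and −0.82 for Ctrl+OGD. The minor Bbc3-202, whose coding sequence is annotated as incomplete and lacks the core, had at most 0.628 FPKM. Bid-203, which lacks the core as well, had between 0.700 and 1.96 FPKM.

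Bax-201, which encodes the whole protein of 192 codons and held between 63.0% and 70.5% of Bax, had 19.8 FPKM in Ctrl, 33.4 FPKM in Ctrl+OGD, 19.1 FPKM in PGC-1α and 23.2 FPKM in PGC-1α+OGD. Its log2 difference for Ctrl+OGD vs Ctrl was 0.72, past 1.5-fold, while the incomplete Bax-203 had 10.1, 11.4, 8.58 and 7.59 FPKM in that order and a difference of 0.16 there. Bax-205 had between 1.55 and 3.30 FPKM, with its highest value in PGC-1α+OGD. Bad was divided between Bad-202 at 18.0 to 22.9 FPKM, between 55.2% and 63.2% of the gene, and Bad-201 at 11.4 to 14.2 FPKM, and neither passed 1.5-fold in any comparison. Bad-203 was listed at 2.60 FPKM in Ctrl, at 3.04 FPKM in PGC-1α+OGD and at 0 in the other 2 libraries, and it is among those counted as past 1.5-fold in all 4 comparisons. Bad-204 had between 0.424 and 0.515 FPKM.

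Bcl2l11 was divided between Bcl2l11-205, with the 196 codons of BIM-EL, and Bcl2l11-203, with the 140 codons of BIM-L. BIM-EL holds a segment of 56 codons that BIM-L lacks, a region through which growth factor kinases are known to control the turnover of the protein, and reads within this segment can only come from BIM-EL among the pair. It lies at chr2:128128757-128128924 on the plus strand of GRCm38 and is given from the GENCODE M21 transcript in lower case throughout.

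Bcl2l11-205 segment of 168 bases: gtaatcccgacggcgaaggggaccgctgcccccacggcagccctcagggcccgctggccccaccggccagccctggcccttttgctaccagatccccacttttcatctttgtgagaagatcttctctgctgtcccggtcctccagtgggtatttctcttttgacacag

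The BIM-L transcript had 5.27 FPKM in Ctrl, 1.89 FPKM in Ctrl+OGD, 5.91 FPKM in PGC-1α and 4.29 FPKM in PGC-1α+OGD. The BIM-EL transcript had 4.15, 2.13, 3.56 and 2.69 FPKM in the same order. Both were lowest in Ctrl+OGD, with log2 differences from Ctrl of −1.12 for BIM-L and −0.72 for BIM-EL. For PGC-1α+OGD vs Ctrl+OGD, BIM-L rose by 0.87, and BIM-EL differed by 0.24, within 1.5-fold. The share of BIM-L was 56.0% in Ctrl, 47.0% in Ctrl+OGD, 62.4% in PGC-1α and 61.5% in PGC-1α+OGD. BIM-EL was thus the larger of the pair only in Ctrl+OGD.

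Bcl2l1 had 6 transcripts with values, and the 2 largest, Bcl2l1-201 and Bcl2l1-202, encode the same BCL-xL protein of 233 codons from different first exons. Bcl2l1-201 had 4.35 FPKM in Ctrl, 6.78 FPKM in Ctrl+OGD, 16.1 FPKM in PGC-1α and 5.16 FPKM in PGC-1α+OGD. Bcl2l1-202 had 5.32, 11.0, 3.66 and 4.36 FPKM in that order. The former was thus highest in PGC-1α and the latter in Ctrl+OGD.

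Together the BCL-xL transcripts had 9.68 FPKM in Ctrl, 17.7 FPKM in Ctrl+OGD, 19.8 FPKM in PGC-1α and 9.52 FPKM in PGC-1α+OGD. Their sum was past 1.5-fold in all 4 comparisons, at 0.96 for PGC-1α vs Ctrl, −0.83 for PGC-1α+OGD vs Ctrl+OGD, 0.81 for Ctrl+OGD vs Ctrl and −0.98 for OGD in PGC-1α cells. The other 4 transcripts, whose coding sequences are annotated as incomplete, summed to 7.77 and 5.71 FPKM in Ctrl and Ctrl+OGD and 7.41 and 5.24 FPKM in PGC-1α and PGC-1α+OGD. Bcl2l1-208, which lacks the BH3 core, had between 1.37 and 2.56 FPKM, Bcl2l1-203 between 1.23 and 3.21 FPKM, Bcl2l1-204 between 1.36 and 1.85 FPKM and Bcl2l1-207 between 0.322 and 0.573 FPKM.

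The first exon of Bcl2l1-201 lies at chr2:152831603-152831728 and that of Bcl2l1-202 at chr2:152830386-152830666, with start sites 1062 bases apart, and the remaining 2 exons are shared. Summed by first exon, the transcripts from the upstream exon (Bcl2l1-201 and Bcl2l1-208) had 6.91 FPKM in Ctrl, 8.15 FPKM in Ctrl+OGD, 18.2 FPKM in PGC-1α and 7.25 FPKM in PGC-1α+OGD. The 4 transcripts from the downstream region had 10.5, 15.3, 9.05 and 7.52 FPKM in that order. PGC-1α was thus the library in which the upstream exon stood far above the downstream one.

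The upstream transcripts rose for PGC-1α vs Ctrl by 1.28 on the log2 scale and fell for PGC-1α+OGD vs PGC-1α by 1.22, with −0.15 and 0.21 in the other 2 comparisons. The downstream transcripts were lower in PGC-1α+OGD than in Ctrl+OGD (−0.94), with −0.20 for PGC-1α vs Ctrl, 0.50 for Ctrl+OGD vs Ctrl and −0.24 for OGD in PGC-1α cells. The sequence before the upstream start is shown because these transcripts carried the rise of Bcl2l1 with PGC-1α. It is the RefSeq sequence of GRCm38.p6 at chr2:152831729-152831978 on the minus strand, 250 bases ending at the start site, with the one match to a searched motif in capitals.

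Bcl2l1 upstream start: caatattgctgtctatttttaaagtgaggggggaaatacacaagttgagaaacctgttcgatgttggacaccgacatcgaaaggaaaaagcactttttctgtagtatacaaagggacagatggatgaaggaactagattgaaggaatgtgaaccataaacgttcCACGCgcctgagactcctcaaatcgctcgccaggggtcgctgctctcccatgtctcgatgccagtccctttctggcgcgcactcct

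Windows of 300 bases were taken near the starts of Bcl2l1-201 and Bcl2l1-202, chr2:152831679-152831978 and chr2:152830668-152830967. They are placed differently, as the former spans the start of Bcl2l1-201 and the latter ends just before that of Bcl2l1-202. The latter window lies within the longer first exon of Bcl2l1-203, chr2:152830386-152831112, whose own start was not searched. Both windows were searched on both strands for AAGGTCA, the site of estrogen-related receptors through which PGC-1α is known to act. The other motifs were GCATGCGC, that of nuclear respiratory factor 1, and ACGTG or GCGTG, the core bound by hypoxia-inducible factors. The first motif and the next had 0 matches in both windows, and the core of hypoxia-inducible factors had 1 match in each window, GCGTG on the minus strand at the downstream start and its reverse complement CACGC at the upstream start. Over 32851 RefSeq promoters of that length, 4.72% held the first motif, 2.71% the next and 43.8% the last. A match is a description of the letters and not a bound site, and a count of 0 says only that these letters are not in these windows.

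**Figure D4:**
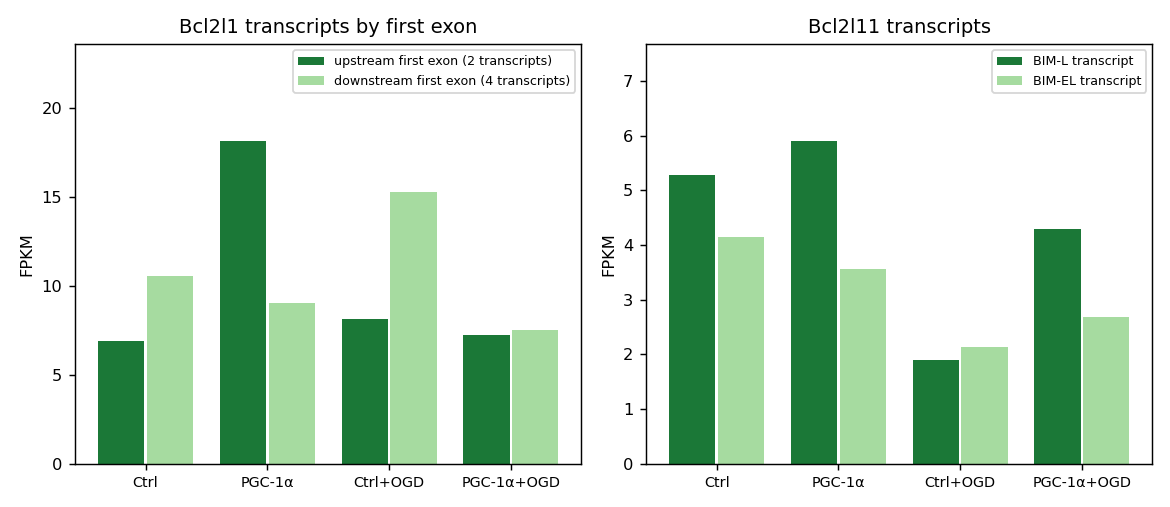
FPKM in the 4 libraries of Bcl2l1 transcripts summed by first exon (left) and of the BIM-L and BIM-EL transcripts of Bcl2l11 (right). Upstream Bcl2l1 transcripts reach 18.2 FPKM in PGC-1α against 6.91 FPKM in Ctrl, and BIM-EL exceeds BIM-L only in Ctrl+OGD.

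Bcl2l2-201, with the 193 codons of BCL-w, had 4.91 FPKM in Ctrl, 4.59 FPKM in Ctrl+OGD, 3.96 FPKM in PGC-1α and 5.58 FPKM in PGC-1α+OGD, and did not pass 1.5-fold in any comparison. The lower Bcl2l2 level in PGC-1α lay mostly in the other transcripts, of which Bcl2l2-205 had 3.54 FPKM in Ctrl against 1.71 FPKM in PGC-1α and Bcl2l2-204 had 1.89 against 0.577 FPKM. Bcl2l2-203 had between 1.26 and 3.57 FPKM, highest in Ctrl. Mcl1-202, a shorter form with the BH3 core, was listed at 0 in both OGD libraries and had 0.772 FPKM in Ctrl against 1.13 FPKM in PGC-1α. Bak1-203 had between 0.523 and 1.39 FPKM.

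The other members of the extended BCL2 family were taken from a list of 16 genes, of which 7 had values. Bok, another pore former that is turned over by the proteasome, had 9.41 and 11.8 FPKM in Ctrl and Ctrl+OGD and 8.30 and 11.7 FPKM in PGC-1α and PGC-1α+OGD, within 1.5-fold in all comparisons. Bnip3, a mitophagy receptor and target of hypoxia-inducible factor, had 73.7, 78.3, 82.5 and 53.2 FPKM, in that order, and fell with OGD in PGC-1α cells (log2 fold change −0.62).

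Its relative Bnip3l had between 42.7 and 50.1 FPKM, the autophagy gene Becn1 between 6.50 and 9.53 FPKM, Bcl2l13 between 13.0 and 18.4 FPKM and Bcl2l12 between 0.975 and 1.35 FPKM, and none of these passed 1.5-fold. Bcl2l15 was listed at 0 in PGC-1α and had 2.32 FPKM in Ctrl+OGD, 1.20 FPKM in PGC-1α+OGD and 0.815 FPKM in Ctrl. It was past 1.5-fold in all 4 comparisons at these low values. The 7 genes had median log2 differences of −0.06, −0.00, 0.09 and 0.13 for PGC-1α without OGD, PGC-1α after OGD, OGD in control cells and OGD in PGC-1α cells. Bik, Hrk, Bmf, Pmaip1, Bcl2a1a, Bcl2a1b, Bcl2a1d, Bcl2l10 and Bcl2l14 were not analysed here.

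Downstream of the pore, Cycs, which encodes the cytochrome c that is released, had 56.7 FPKM in Ctrl, 103 FPKM in Ctrl+OGD, 107 FPKM in PGC-1α and 130 FPKM in PGC-1α+OGD. Of 10 genes of cytochrome c release and the apoptosome, 2 rose and 1 fell with PGC-1α without OGD, 0 and 1 with PGC-1α after OGD, 3 and 0 with OGD in control cells, and 1 and 2 with OGD in PGC-1α cells. Their median log2 differences were 0.22, 0.11, 0.31 and 0.07 in that order. Over all genes the shares higher and lower were 4.91% and 5.63%, 3.08% and 3.82%, 6.20% and 7.71%, and 3.82% and 5.22%. In a list this small, a count of 1 or 2 cannot be set apart from these shares. Cycs rose with PGC-1α (0.90) and with OGD in control cells (0.85). Aifm1, a mitochondrial protein that serves respiration and can promote DNA fragmentation, rose in the same comparisons, by 1.68 and 1.29. Its values were 16.5 FPKM in Ctrl, 41.9 FPKM in Ctrl+OGD, 55.2 FPKM in PGC-1α and 55.3 FPKM in PGC-1α+OGD.

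Diablo and Htra2 encode mitochondrial proteins that block inhibitors of apoptosis once released. Diablo had 13.9 and 22.4 FPKM in Ctrl and Ctrl+OGD and 21.3 and 13.3 FPKM in PGC-1α and PGC-1α+OGD. It rose with OGD in control cells (0.65), was lower in PGC-1α+OGD than in Ctrl+OGD (−0.72) and fell with OGD in PGC-1α cells (−0.64).

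The order of the Diablo libraries resembled that of Bcl2l1, with PGC-1α and Ctrl+OGD above the other 2, which is a description of 4 libraries. Htra2 had 3.80, 2.58, 1.13 and 3.56 FPKM in the order used for Diablo, and fell with PGC-1α (−1.17) and rose with OGD in PGC-1α cells (1.10). Casp9, which the apoptosome activates, fell with OGD in PGC-1α cells (−0.69).

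Of 7 caspases, 0 rose in any comparison, and 1, 0, 3 and 3 fell for PGC-1α without OGD, PGC-1α after OGD, OGD in control cells and OGD in PGC-1α cells. Their medians were −0.23, −0.03, −0.31 and 0.08. Over all genes 5.63%, 3.82%, 7.71% and 5.22% were lower in that order, and between 3.08% and 6.20% were higher. The 3 that fell with OGD were Casp1, Casp4 and Casp12, the inflammatory caspases of the list. Casp4 had 64.9 FPKM in Ctrl, 16.8 FPKM in Ctrl+OGD, 39.1 FPKM in PGC-1α and 19.9 FPKM in PGC-1α+OGD, and was also the one that fell with PGC-1α (−0.72).

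Of 5 inhibitors of apoptosis with values, 1 rose and 1 fell for Ctrl+OGD vs Ctrl, Birc5 (0.71) and Birc2 (−0.65), and 0 passed in the other 3 comparisons. Medians of these 5 were −0.03, −0.21, 0.12 and −0.04 for PGC-1α without OGD, OGD in control cells, PGC-1α after OGD and OGD in PGC-1α cells. Of 8 genes of the death receptor arm upstream of Bid, 0 passed for PGC-1α vs Ctrl, 1 fell for PGC-1α+OGD vs Ctrl+OGD, 1 rose and 1 fell for Ctrl+OGD vs Ctrl, and 1 fell for OGD in PGC-1α cells. The medians of the 8 lay between −0.20 and −0.01. Beside the counts of both lists, 3.08% to 6.20% of all genes were higher and 3.82% to 7.71% lower, depending on the comparison. Ripk1, a kinase of the receptor complex, had 8.0 and 21.6 FPKM in Ctrl and Ctrl+OGD and 12.4 and 11.9 FPKM in PGC-1α and PGC-1α+OGD, the change being 1.33 with OGD in control cells and −0.82 with PGC-1α after OGD. The receptor gene Fas fell with OGD by 1.07 in control cells and by 1.07 in PGC-1α cells.

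**Figure D5:**
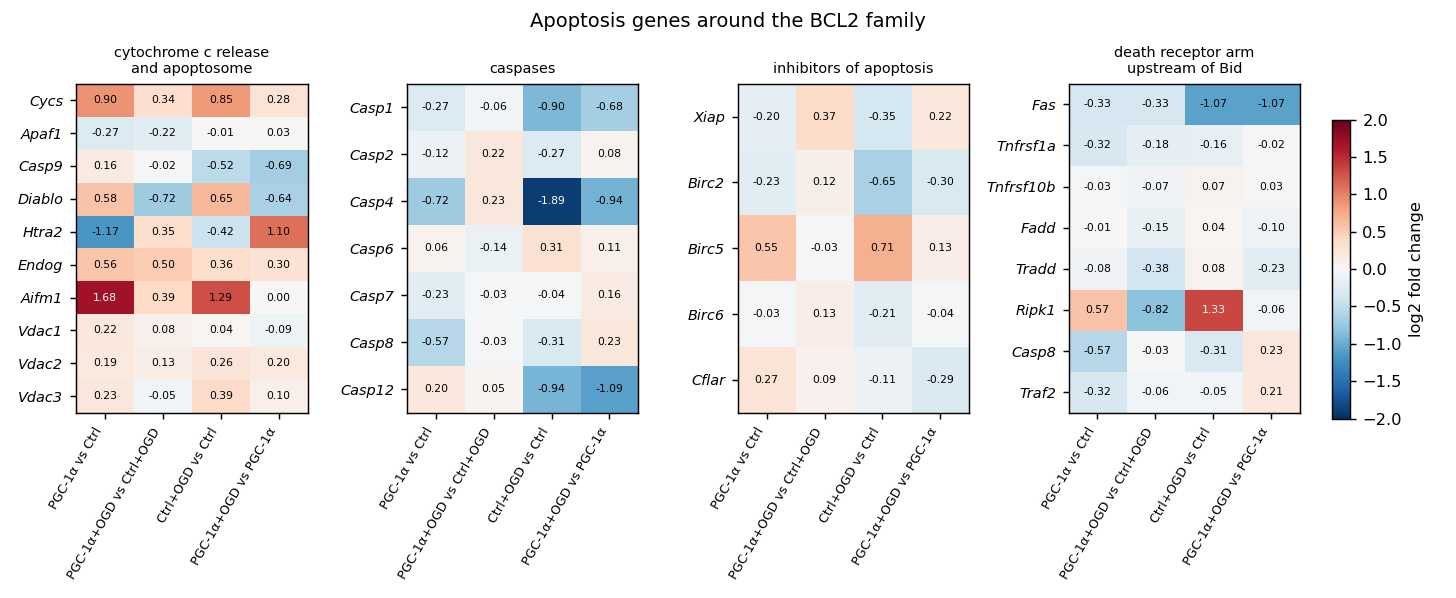
Log2 fold changes (colour and printed value) of the genes in 4 lists around the BCL2 family, with the 4 comparisons as columns. Casp1, Casp4, Casp12 and Fas are blue in both OGD columns, and Aifm1 is the deepest red for PGC-1α vs Ctrl (1.68).

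Bbc3 and Bax are targets of p53, and of the 12 other genes of that list with values 0 rose and 2 fell with PGC-1α without OGD, 0 and 1 with PGC-1α after OGD, 1 and 1 with OGD in control cells, and 2 and 0 with OGD in PGC-1α cells. With 1 transcript per gene, the last of these pairs became 1 and 2, so that its balance turned, and the pair for OGD in control cells became 3 and 2. The medians of the 12 were −0.01, −0.04, −0.10 and 0.03. By comparison, 3.08% to 6.20% of all genes were higher and 3.82% to 7.71% lower, which these small counts cannot be set apart from. Gadd45a, a stress sensor of the cell cycle, had 129 FPKM in Ctrl, 83.3 FPKM in Ctrl+OGD, 47.7 FPKM in PGC-1α and 72.7 FPKM in PGC-1α+OGD, highest in Ctrl as Bbc3 was. It fell with PGC-1α (−1.42), as did Sesn2 (−0.68). With OGD, Gadd45a fell in control cells (−0.63) and rose in PGC-1α cells (0.60). Mdm2, the ligase that degrades p53, had 2.98, 12.7, 3.0 and 6.08 FPKM in that order. Mdm2 rose with OGD in control cells (1.79) and in PGC-1α cells (0.82), and was lower in PGC-1α+OGD than in Ctrl+OGD (−0.96). Trp53 itself had 55.2, 72.8, 53.1 and 69.5 FPKM in the same order, within 1.5-fold.

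Of 18 regulators of BCL2 family proteins and genes, 0 rose and 2 fell with PGC-1α without OGD, 0 and 1 with PGC-1α after OGD, 1 and 3 with OGD in control cells, and 2 and 0 with OGD in PGC-1α cells. The medians of the 18 were 0.05, −0.05, 0.03 and −0.01. Across the 4 comparisons 3.08% to 6.20% of all genes were higher and 3.82% to 7.71% lower. Ddit3, which encodes CHOP, a stress factor known to raise Bcl2l11 and Bbc3 and to lower Bcl2, had 393 FPKM in Ctrl, 228 FPKM in Ctrl+OGD, 91.8 FPKM in PGC-1α and 212 FPKM in PGC-1α+OGD. It fell with PGC-1α (−2.09) and with OGD in control cells (−0.78) and rose with OGD in PGC-1α cells (1.20).

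Ddit3 was highest in Ctrl and lowest in PGC-1α. Among the members Bbc3, Bid and the survival member Bcl2l2 had the same highest and lowest library, and Bcl2l11 and Bcl2 did not. Mapk8, a kinase that phosphorylates BIM and BCL-2, fell with PGC-1α (−0.71) and rose with OGD in PGC-1α cells (0.78). Fbxw7, a ligase for MCL-1, rose with OGD in control cells (0.92) and was lower in PGC-1α+OGD than in Ctrl+OGD (−0.88). Mcl1 RNA stayed within 1.5-fold, and MCL-1 protein, on which the ligase acts, was not measured in these libraries. Foxo3 (−0.67) and Jun (−0.62), which encode factors known to drive Bcl2l11, fell with OGD in control cells, the comparison in which Bcl2l11 fell. With OGD in PGC-1α cells Foxo3 was at −0.58, Jun at −0.28 and Bcl2l11 at −0.39. For PGC-1α+OGD vs Ctrl+OGD, Foxo3 was at 0.13 and Jun at −0.08, while Bcl2l11 was higher by 0.67. Without OGD, PGC-1α gave 0.04 for Foxo3, −0.42 for Jun and 0.01 for Bcl2l11. No relation between them was tested.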

How the data were processed

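RNA-Seq of HT-22 cells was used from 4 libraries, 1 per group, with groups taken from the sample records. The authors enriched poly(A) RNA, prepared stranded libraries, aligned paired reads to GRCm38 with HISAT2 2.1.0 (submitters' processing notes) and deposited values per transcript, which were taken as FPKM although their unit is not named. The quantifier, its annotation and whether strand was used are not given in the sources used here. Without strand, reads of genes on opposite strands cannot be told apart, which touches Bak1 (Ggnbp1), Bid (Bcl2l13), Bad (Gpr137) and Bcl2 (D630008O14Rik). Bax shares exons with Gm45808 on its own strand. Reads per library are unknown, so no counting error can be given.

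Transcripts were matched to GENCODE M21 by identifier without version (25822 of 25889, 99.7%; 67 left out) and summed per gene. Genes averaging 1 FPKM or more were compared as log2(FPKM + 1) against 1.5-fold, the study's fold criterion. Named were all 10 members and their transcripts, the other family genes and, in the remaining lists, at most 3 genes per comparison past 1.5-fold. Outside this rule, Jun was named, next in size after 3 other regulators for Ctrl+OGD vs Ctrl, and Trp53, which stayed within 1.5-fold. The members and lists were chosen with earlier results of these data known. From these lists 1 gene is not reported here. The computation was tested on simulated data. Python 3.11.15, numpy 2.4.6, pandas 2.3.3, matplotlib 3.10.9 and Biopython 1.88 were used. Alternatives were the highest transcript per gene, protein-coding transcripts only, pseudocounts of 0.1 and 0.01, scaling by median ratio or upper quartile, no filter on low values, a minimum mean of 5, and a fold of 2. Sums over complete coding sequences and Bcl2l2 summed with Gm20521 were added after the data were seen.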

Additional observations from a re-analysis of the deposited data

Results flagged for a closer look

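In 3 members the change with PGC-1α had opposite directions without and after OGD, with at least 1 of the changes past 1.5-fold. The log2 fold change after OGD minus that without OGD was 1.05 for Bbc3, −1.25 for Bcl2l1 and 0.96 for Bcl2l2. For Bcl2l1 the value adds transcripts that changed differently. With PGC-1α its upstream transcripts changed by 1.28 without and −0.15 after OGD, and its downstream transcripts by −0.20 and −0.94. Neither group of transcripts passed 1.5-fold in both directions. With 1 library per group the differences were not tested. Ppargc1a had 35.1 FPKM in PGC-1α and 8.41 FPKM in PGC-1α+OGD. The changes with PGC-1α without and after OGD thus differ in the level of overexpression as well as in OGD. Summed with Gm20521, which shares exons with it, Bcl2l2 changed by −0.26 without and 0.01 after OGD, neither past 1.5-fold, and the difference was 0.27.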

How the results depend on the processing

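With 1 library per group no replicate could be left out. No paired analysis was possible with 1 library in each group. A fit of PGC-1α and OGD as additive terms over the 4 libraries, which would leave 1 residual degree of freedom, was not run. The depth is unknown, so the precision of low members such as Bbc3, Bcl2l11 and Bcl2 cannot be given. No member changed direction past the threshold under any alternative. The log2 change of the death-promoting to survival ratio stayed within 1.5-fold in all 32 values under other settings, and changed sign in 1 of them, for PGC-1α+OGD vs Ctrl+OGD without Bak1 and Mcl1 (0.04). Not all of these values were free to move. Scaling by median ratio or upper quartile cancels in the ratio. No filter and protein-coding transcripts only left the member values as they were. With 1 transcript per gene, the members past 1.5-fold for PGC-1α+OGD vs Ctrl+OGD went from 2 to 1, Bcl2l1 being at −0.34, and Bcl2l2 for PGC-1α vs Ctrl was at −0.25. For Ctrl+OGD vs Ctrl the count went from 2 to 4 with a pseudocount of 0.1 and to 4 with 0.01, with Bax at 0.59 under both and Bcl2 at −0.61 and −0.62, and to 5 with complete coding sequences only, with Bax at 0.72, Bcl2l1 at 0.81 and Bcl2l2 at −0.63. Complete coding sequences put Bcl2l2 for PGC-1α vs Ctrl at −0.52, and summing with Gm20521 at −0.26. Median ratio scaling put Bax at 0.60 for Ctrl+OGD vs Ctrl. At a fold change of at least 2, 0 members passed for PGC-1α vs Ctrl, 0 for PGC-1α+OGD vs Ctrl+OGD, 1 for Ctrl+OGD vs Ctrl (Bcl2l11) and 0 for PGC-1α+OGD vs PGC-1α. Upper quartile scaling kept all 40 member calls, and a mean of at least 5 left Bcl2 out. No filter and protein-coding transcripts only also kept the calls, but could not have altered them. All members passed the filter already, and all their transcripts with values are protein-coding. With 1 transcript per gene, 19 of 56 counts of the other gene lists differed by more than 1.5 times. For PGC-1α vs Ctrl, genes higher went from 0 to 1 in the other BCL2 family genes and the caspases and from 0 to 2 in the death receptor, p53 and regulator lists, and genes lower from 1 to 2 in the cytochrome c list. For PGC-1α+OGD vs Ctrl+OGD, genes higher went from 0 to 1 in the other BCL2 family genes and the regulators, and genes lower from 1 to 2 in the cytochrome c and p53 lists. For Ctrl+OGD vs Ctrl, genes higher went from 1 to 2 in the other BCL2 family genes, the death receptor list and the regulators, from 0 to 1 in the caspases and from 1 to 3 in the p53 list, and genes lower from 0 to 3 in the cytochrome c list and from 1 to 2 in the p53 list. With OGD in PGC-1α cells, the p53 list went from 2 to 1 higher and from 0 to 2 lower.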
